A study of Mus musculus with 9 samples.

Results

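Genes of fibroblast growth factor (FGF) signalling were followed across 3 stages of mouse cells that the study labels neural crest cells. The members were all probe sets annotated to exactly 1 gene symbol that is Fgf, Fgfr, Spry or Spred followed by a number alone, or Etv1, Etv4, Etv5, Dusp6, Frs2 or Frs3. This gave 83 probe sets of 37 genes, among 45101 probe sets and 18193 genes with a symbol of their own in the annotation. Etv1 and Frs2 are not analysed here. The cells were taken by laser capture microdissection, in which selected cells are cut out of a tissue section under the microscope, and their RNA was measured on 9 Affymetrix mouse arrays. E8.5 stands for embryos at closure of the neural tube, E13.5 for embryonic dorsal root ganglia, the sensory ganglia beside the spinal cord, and P90 for the adrenal medulla of adults aged 3 months. Each stage had 3 samples, called biological replicates, and the labels give no genotype, allele or treatment for any of them, nor the strain or the number of animals behind a capture. Every stage came from a different tissue, so age and tissue cannot be told apart.

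FGFs are secreted proteins that bind receptor tyrosine kinases on the cell surface together with heparan sulphate, and the activated receptors signal through adaptor proteins into the RAS and ERK kinase cascade. ERK activity switches on genes of its own inhibitors, among them the Sprouty and Spred proteins and the phosphatase Dusp6, and the ETS transcription factors Etv4 and Etv5, so the level of these genes is commonly read as an output of the pathway. A separate branch of the family, the FGF homologous factors Fgf11 to Fgf14, stays inside the cell and binds voltage-gated sodium channels of neurons. In the embryo FGFs act in the induction of the neural crest and the patterning of the neural tube, and FGFs are survival and growth factors for sensory neurons and chromaffin cells.

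The markers of the labelled tissues followed the labels in part. The 8 neural crest markers, summed as signals on each array, came to between 4558 and 6060 at E8.5 and to between 2243 and 3088 at E13.5. Markers of neural tube, 5 of 8 summed with most of the sum from Sox2, reached 3780 to 4033 at E8.5 and 746 to 1358 at E13.5. Sensory neuron markers, 5 of 11 summed, lay between 4474 and 6927 at E13.5 against 262 to 419 at E8.5. Chromaffin markers, 7 of 9 summed, lay between 12770 and 26250 at P90. Several defining markers had probe sets without values. Isl1, Pou4f1 and Prph were empty on all 3 E13.5 arrays for at least 1 probe set. So were Cyp11a1, Cyp11b1 and Star of the adrenal cortex on all 3 P90 arrays. In such bulk RNA, fewer cells of a type and less RNA per cell cannot be told apart. Median signals of the arrays ranged from 38.3 to 48.2. By counts of genes over 2-fold from both other arrays of their stage, a pair of arrays stood furthest off. On P90 replicate 1, 14.6% of all genes lay above the other P90 arrays by over 2-fold. On E13.5 replicate 2, 22.2% of all genes lay under the other E13.5 arrays by over 2-fold. E8.5 replicate 1 (5.53% above and 6.38% under) and E13.5 replicate 1 (7.88% above and 5.01% under) differed less in these counts. In mean correlation with its stage, E13.5 replicate 1 (0.915) lay between E13.5 replicate 2 (0.909) and P90 replicate 1 (0.921). Where leaving out P90 replicate 1 or E13.5 replicate 2 gained or ended a member's call, this is stated with the values. P-values set a difference between stages against the spread between samples of a stage, estimated over all 9 arrays. The number of animals behind a sample is not given, so this spread need not be one between animals. With 3 arrays per stage, the precision of every value is limited.

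Of the 37 genes, 28 passed the filter on dim signals, which asked for a signal above 26.1 on at least 3 arrays and at least 2 values per stage. The other 9 members, all ligands, were not tested. Changes were taken as differences of log2(signal + 16) in a limma fit of all 9 arrays, which understates changes of dim genes, and a gene was called at an adjusted p under 0.05 over all 13748 genes tested. Between E8.5 and E13.5, 7 of the 28 members were called, against 16.5% of all genes. Fgf11, Fgf13, Spred3 and Etv5 rose, 4 members against 9.27% of all genes called higher, and Fgf15, Fgf3 and Fgfr2 fell, 3 members against 7.22% called lower. P90 was lower than E13.5 in 5 members, Fgf11, Fgf18, Fgfr3, Spred3 and Spry3, against 9.48% of all genes called in either direction and 5.94% called lower. Relative to E8.5, P90 was lower in 3 members, Fgf15, Fgf18 and Fgfr3, against 23.3% of all genes called and 12.5% called lower. No member was called higher at P90 in either comparison, while 3.54% and 10.9% of all genes were, against E13.5 and E8.5 respectively. At an unadjusted p under 0.05 in limma the members higher at P90 were 0 and 1. Without P90 replicate 1, Fgf14 was called higher at P90 in both comparisons and Fgf11 in that with E8.5 (1.12 ± 0.34, adjusted p = 0.0318), and without E13.5 replicate 2, Etv5 was called higher at P90 than at E8.5 (0.87 ± 0.27, adjusted p = 0.0359). The median log2 change of the tested members was 0.14, -0.38 and -0.13 in these 3 comparisons, beside 0.02, -0.05 and 0 for all genes. The comparisons share arrays in pairs, so their values are not independent.

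**Figure D1:**
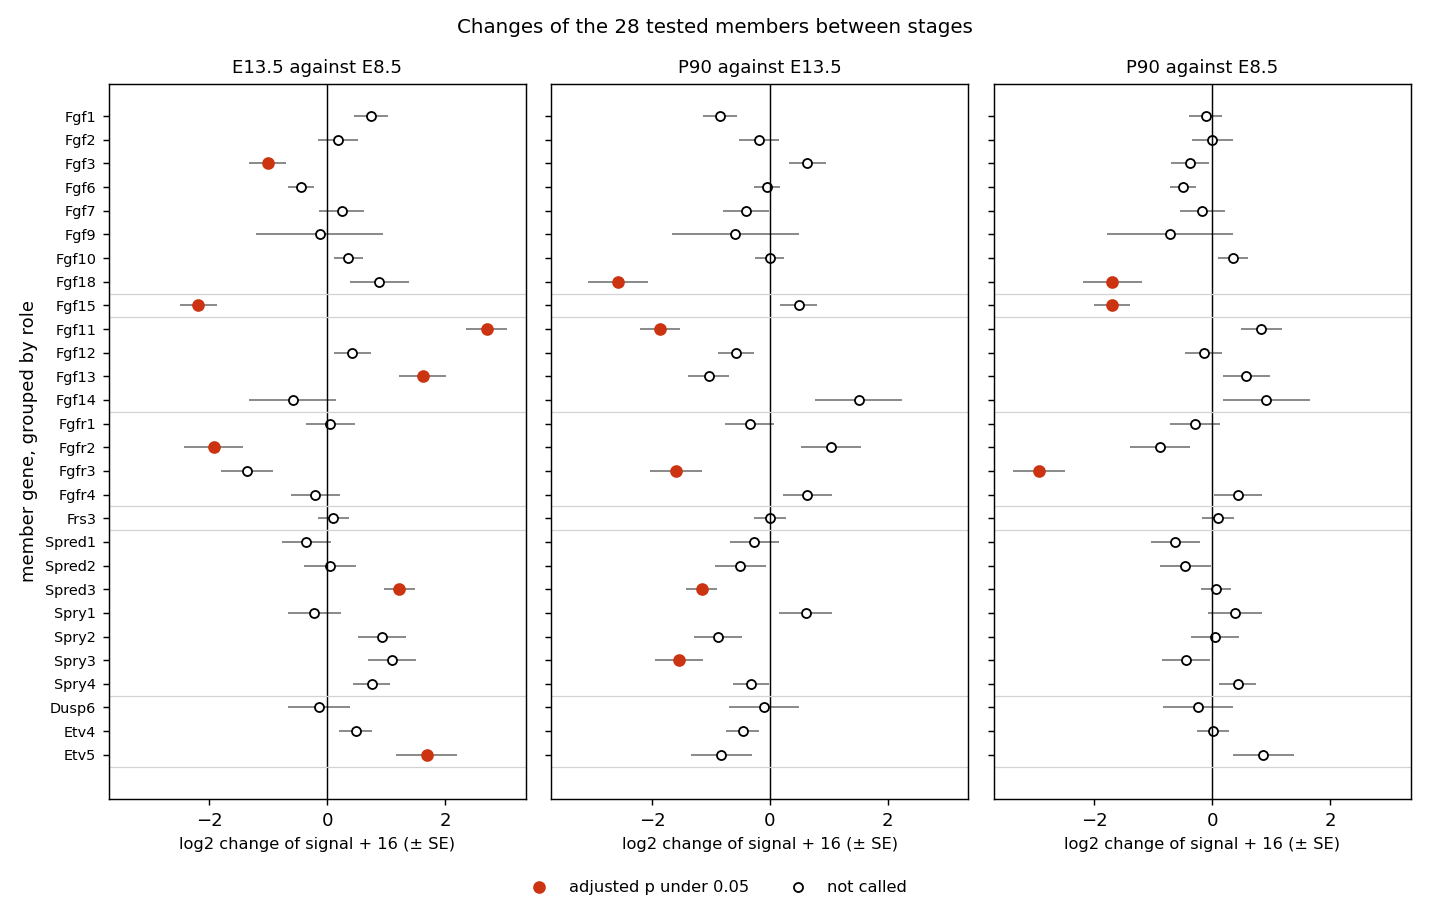
Log2 change of signal + 16 with its standard error (horizontal bars) for each of the 28 tested members, grouped by role, in the 3 comparisons of stages; filled red points have an adjusted p under 0.05 in limma. Filled points lie on both sides of 0 for E13.5 against E8.5 (4 right, 3 left) and left of 0 for both comparisons with P90 (5 and 3), and the widest bars belong to Fgf9.

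Whether stage values overlapped was counted apart from the test. From E8.5 to E13.5, 9 members lay higher and 5 lower with no overlap of arrays, against 18.6% and 17.1% of all genes. From E13.5 to P90, 1 lay higher and 7 lower, against 9.59% and 13.9%. P90 lay above E8.5 in 2 members and below it in 4, against 20.3% and 23.6%. Counts are over arrays with a value, which leaves out E8.5 replicate 1 for Fgf13. The E13.5 arrays lay above those of both other stages in 5 of the 28 members, Fgf1, Fgf11, Fgf13, Spred3 and Spry3, while 6.06% of all genes had this pattern. E8.5 lay above both other stages in 3 members, Fgf15, Fgf6 and Fgfr3, against 12.8% of all genes. P90 lay above both in 0 members, against 6.52% of all genes. Etv5 and Spry4 had E8.5 below both other stages, a pattern of 9.97% of all genes.

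Promoter sequence is shown for 4 called members, because these genes moved in different directions between the stages and their promoters differ in base composition. RefSeq windows from 250 bases before to 50 bases after a start, on build GRCm38.p6, were given for 27 of the 37 member genes as 35 windows. The stretches below are the last 150 bases before a RefSeq start, 5′ to 3′ on the strand of the gene, with capitals marking GC boxes (GGGCGG, the letters bound by Sp factors) and E-boxes (CAGCTG or CAGATG, the letters bound by basic helix-loop-helix factors) on either strand. Fgf11 lies on the minus strand at chr11:69802281-69802430, Spred3 on the minus strand at chr7:29168648-29168797, Fgfr2 on the minus strand at chr7:130266809-130266958 and Fgfr3 on the plus strand at chr5:33721574-33721723, all upstream of the first exon of that transcript.
Fgf11: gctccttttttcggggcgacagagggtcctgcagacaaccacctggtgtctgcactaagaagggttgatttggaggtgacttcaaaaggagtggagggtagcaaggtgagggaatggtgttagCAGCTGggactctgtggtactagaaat
Spred3: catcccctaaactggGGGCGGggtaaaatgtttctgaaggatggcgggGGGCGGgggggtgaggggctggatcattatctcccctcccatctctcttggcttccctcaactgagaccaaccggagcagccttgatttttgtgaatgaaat
Fgfr2: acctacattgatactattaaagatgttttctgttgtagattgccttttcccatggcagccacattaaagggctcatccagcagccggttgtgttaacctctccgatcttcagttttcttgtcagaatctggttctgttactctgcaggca
Fgfr3: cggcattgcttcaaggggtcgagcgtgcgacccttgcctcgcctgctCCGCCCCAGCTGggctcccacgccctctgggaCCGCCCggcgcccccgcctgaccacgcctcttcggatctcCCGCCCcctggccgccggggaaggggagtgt
Fgf11 held 1 E-box in this stretch, Spred3 held 2 GC boxes, and Fgfr3 held 3 GC boxes and 1 E-box that directly follows a GC box. No capitals stand in the Fgfr2 stretch, which says only that no whole motif lies within it. The Fgfr2 window holds 1 CAGATG at position -2, which runs over the end of the stretch and is not marked. Over the first 250 bases of each window, median GC content was 62.4% in the member windows and 52.4% in all 32851 windows, and the median number of CpG pairs was 18 against 6. Over the whole windows, GC boxes were found in 65.7% of member windows and 35.7% of all windows, CAGCTG in 20.0% and 16.3%, CAGATG in 14.3% and 17.2%, and the TATA letters TATAAA in 8.57% and 13.6%. The ETS letters CCGGAAG were in 0 of 35 member windows and in 8.86% of all windows, and TTCAGCACC, the left part of the RE1 element of neuronal genes, in 0 of 35 and 0.371%. All motifs were read on both strands. A match in letters is not a bound site.

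Among the secreted ligands, Fgf15 and Fgf18 had the largest called differences. Fgf15, which acts through Fgfr4 and the co-receptor Klb as a gut hormone in adults and is made in the embryonic neural tube, gave signals of 576, 589 and 514 at E8.5. Its E13.5 signals were 98.7, 91.0 and 147, and its P90 signals 159, 178 and 147. The E8.5 arrays lay above all others, and the later stages overlapped. Fgf15 fell by 2.19 ± 0.31 (SE) on the log2 scale from E8.5 to E13.5 (limma adjusted p = 0.000726), and its log2 change from E8.5 to P90 was -1.70 ± 0.31 (adjusted p = 0.00235). Between E13.5 and P90 the change of 0.49 was not called (adjusted p = 0.427). The summed neural tube list moved the same way, from 3780 to 4033 at E8.5 to between 746 and 1358 at E13.5 and between 100.3 and 115 at P90. At E8.5 and E13.5 most of the sum was Sox2 (2854 to 3009, then 699 to 1320). Pax6, Wnt1 and Wnt3a were also lower on every later array, while Pax7 overlapped. The part of this list in the Fgf15 result was not tested.

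**Figure D2:**
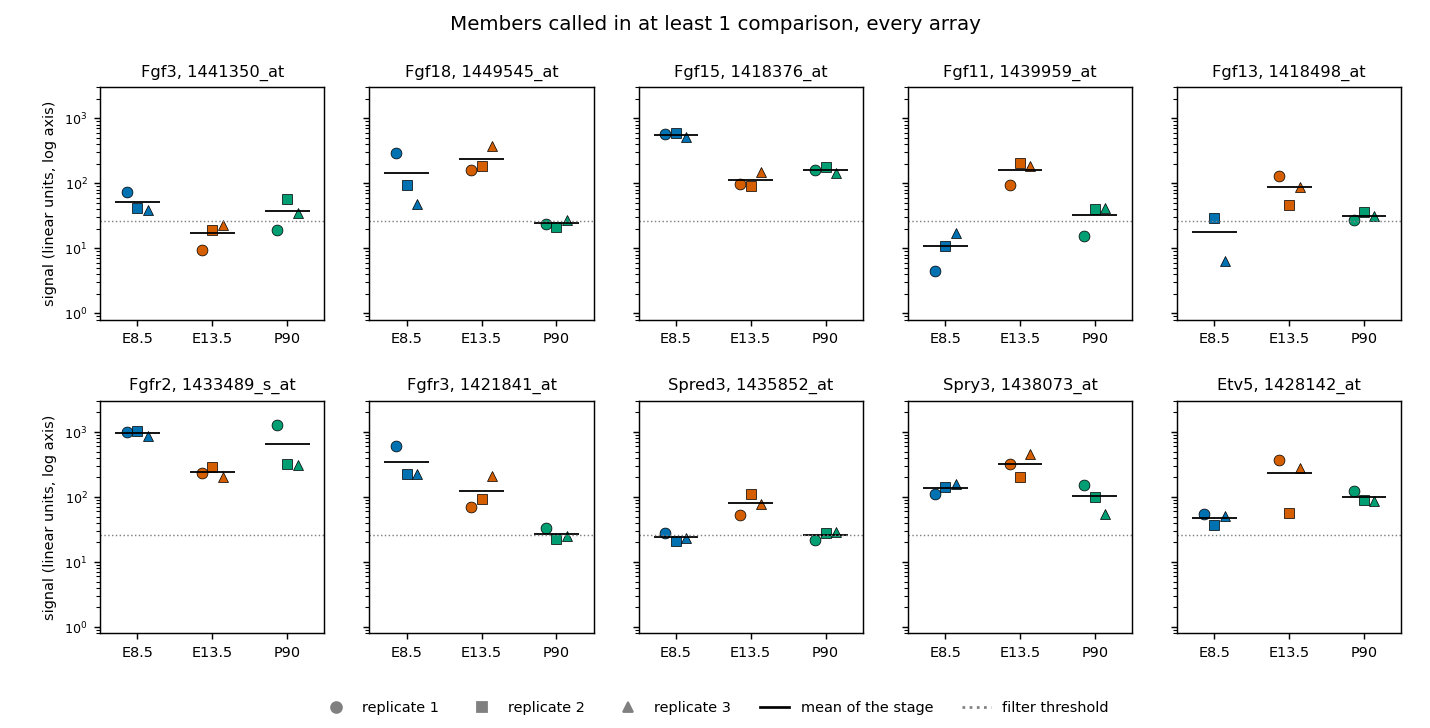
Signal on a log axis for the 10 members called in at least 1 comparison, with 1 point per array (symbols give the replicate), a line at the mean of each stage and a dotted line at the filter threshold of 26.1. Fgf15 and Fgfr3 are highest at E8.5, Fgf11, Fgf13, Spred3 and Spry3 at E13.5, and in Fgfr2 P90 replicate 1 stands at 1291 above the other P90 arrays at 326 and 316.

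Fgf18, a ligand known from bone, cartilage and brain development, read 290, 94.6 and 48.7 at E8.5 and 158, 186 and 373 at E13.5. At P90 it read 24.0, 21.2 and 27.4, below every earlier array and near the filter threshold. The fall from E13.5 to P90 was 2.58 ± 0.50 on the log2 scale, a log2 change of -2.58 (limma adjusted p = 0.0072), and from E8.5 to P90 the log2 change was -1.70 ± 0.50 (adjusted p = 0.0303). Those of E8.5 and E13.5 overlapped (0.88, adjusted p = 0.289). The call against E8.5 was lost without E8.5 replicate 1 (-1.08, adjusted p = 0.0927) and also without E8.5 replicate 2, P90 replicate 2 or P90 replicate 3.

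Fgf3, a ligand of inner ear and hindbrain development, was dim, with 74.8, 41.9 and 39.0 at E8.5, 9.48, 19.0 and 23.2 at E13.5, and 19.1, 57.2 and 35.3 at P90. All E13.5 values were under the filter threshold and under every E8.5 value, while P90 overlapped both. The log2 change of -1.02 ± 0.32 from E8.5 to E13.5 was just past the threshold (limma adjusted p = 0.0481). It was called under 10 of the 24 alternatives that gave a value, and leaving out any E8.5 or E13.5 array, or P90 replicate 3, ended the call (adjusted p up to 0.169).

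The remaining tested ligands were not called in any comparison. Fgf1, a ligand that binds all FGF receptors, read 142, 87.2 and 101 at E8.5, 193, 174 and 206 at E13.5 and 86.7, 110 and 99.9 at P90. Its E13.5 arrays lay above both other stages, with log2 changes of 0.74 from E8.5 (limma adjusted p = 0.108) and -0.85 to P90 (adjusted p = 0.0935). Fgf6, a ligand known from muscle, read 31.6, 41.3 and 41.0 at E8.5, above the later arrays at 19.0 to 30.4. Fgf2, Fgf7 and Fgf10, which include the main ligands made by mesenchyme for epithelium, ranged over the 9 arrays from 14.3 to 58.9, from 18.9 to 97.8 and from 21.5 to 57.1, with overlapping stages.

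Fgf9, a ligand for mesenchymal receptors, was set by single arrays. It read 277, 81.9 and 81.7 at E8.5 and 128, 71.6 and 153 at E13.5. At P90 it read 848, 12.96 and 9.15, so replicate 1 held the highest of all 9 signals and the other P90 arrays the lowest ones. The mean P90 signal of 290 was above the mean of 117 at E13.5, while the log2 change was -0.58 ± 1.08 (limma adjusted p = 0.828). Without P90 replicate 1 the log2 change was -2.25 ± 0.48 against E13.5 (adjusted p = 0.0108), and P90 was then also called lower than E8.5 (adjusted p = 0.00363). A second Fgf9 probe set, 1420795_at, ranged only from 47.8 to 101 over the 9 arrays and was not called.

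Most untested ligands stayed under the filter threshold on nearly every array. Fgf8, which marks signalling centres of the early embryo, had signals from 1.10 to 8.59, Fgf20 from 3.44 to 6.49 and Fgf16 from 2.19 to 10.4. Fgf17, Fgf22 and the phosphate hormone Fgf23 did not exceed 22.2, 21.9 and 21.0. The metabolic hormone Fgf21 passed the threshold on 1 array, at 41.5, and Fgf4, a ligand of the early embryo, reached 47.1 on 1 of its 4 probe sets. Fgf5, a regulator of hair growth, had no value for 1438883_at on any E8.5 array or on E13.5 replicate 1. On the others it read 41.7 and 40.4 at E13.5 and 22.1, 26.8 and 22.1 at P90, so it passed the signal threshold on 3 arrays and was left out for its empty values. For the other untested ligands the arrays give a bound on the signal and no change between stages.

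The intracellular FGF homologous factors were led by Fgf11. Its probe set 1439959_at read 4.56, 10.8 and 17.1 at E8.5, all under the filter threshold, and 95.9, 205 and 186 at E13.5. At P90 it read 15.7, 40.5 and 41.6. The E13.5 arrays lay above every other array, and E8.5 and P90 overlapped. Fgf11 rose by 2.70 ± 0.34 on the log2 scale from E8.5 to E13.5 (limma adjusted p = 0.000359) and fell by 1.87 ± 0.34 to P90 (log2 change -1.87, adjusted p = 0.00486). Its other probe set, 1421793_at, stayed under the filter with a highest signal of 7.50.

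Fgf13, a microtubule and sodium channel partner in sensory neurons, was represented by 1418498_at, which was empty on E8.5 replicate 1 and read 29.2 and 6.47 on the others. At E13.5 it read 128, 46.3 and 87.4, and at P90 27.6, 36.0 and 31.1. The E13.5 arrays lay above all others, with a rise from E8.5 of 1.62 ± 0.40 (limma adjusted p = 0.0183) and a change to P90 of -1.04 that was not called (adjusted p = 0.105). The rise from E8.5 was not called without E13.5 replicate 3 (adjusted p = 0.0644), and the change to P90 was called without E13.5 replicate 2 (-1.36 ± 0.33, adjusted p = 0.0247). A second probe set, 1418497_at, had no value on any E13.5 array and read 319, 476 and 516 at E8.5 and 18.0, 175 and 112 at P90. In mean signal E8.5 was above P90 with 1418497_at and below it with 1418498_at, where these stages overlapped. The rise of Fgf13 to E13.5 rests on 1418498_at alone.

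Fgf12 and Fgf14, both sodium channel partners in neurons, also depended on the probe set. Fgf12 was represented by 1451693_a_at, which read 71.6, 43.7 and 37.0 at E8.5, 115, 45.0 and 67.9 at E13.5 and 41.9, 46.4 and 40.3 at P90, overlapping throughout. Its change from E8.5 to E13.5 was 0.43 (limma adjusted p = 0.426). The probe set 1440270_at of the same gene read 12.1, 13.6 and 9.88 at E8.5, 508, 79.0 and 195 at E13.5, and 9.90, 68.9 and 42.4 at P90. Here the E13.5 arrays lay above all others, by 2.98 ± 0.57 over E8.5 (limma over probe sets, adjusted p = 0.00533), with a change to P90 of -2.12 ± 0.57 (adjusted p = 0.0463). Over all probe sets, 9 of the 51 member probe sets past the filter were called between E8.5 and E13.5, beside 15% of all probe sets. Between E13.5 and P90, 6 were called, beside 7.48%, and between E8.5 and P90, 4 were called, beside 20.8%.

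Fgf14 read 31.2, 49.4 and 13.98 at E8.5, 9.77, 9.75 and 24.7 at E13.5, and 2.65, 248 and 111 at P90 with 1435747_at. P90 replicate 1 was the lowest of the 9 arrays and the other P90 arrays the highest. No comparison was called with all arrays (log2 change from E13.5 to P90 of 1.51 ± 0.74, limma adjusted p = 0.274). Without P90 replicate 1, P90 was higher than E13.5 by 2.61 ± 0.40 (adjusted p = 0.00184) and higher than E8.5 by 2.02 ± 0.40 (adjusted p = 0.00369). The probe set 1458830_at went the other way, with 132 and 117 on the E8.5 arrays that had a value, 31.5, 15.7 and 10.7 at E13.5 and at most 2.58 at P90 (change from E8.5 to P90 of -2.96 ± 0.28, adjusted p = 7.82e-05 over probe sets).

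**Figure D3:**
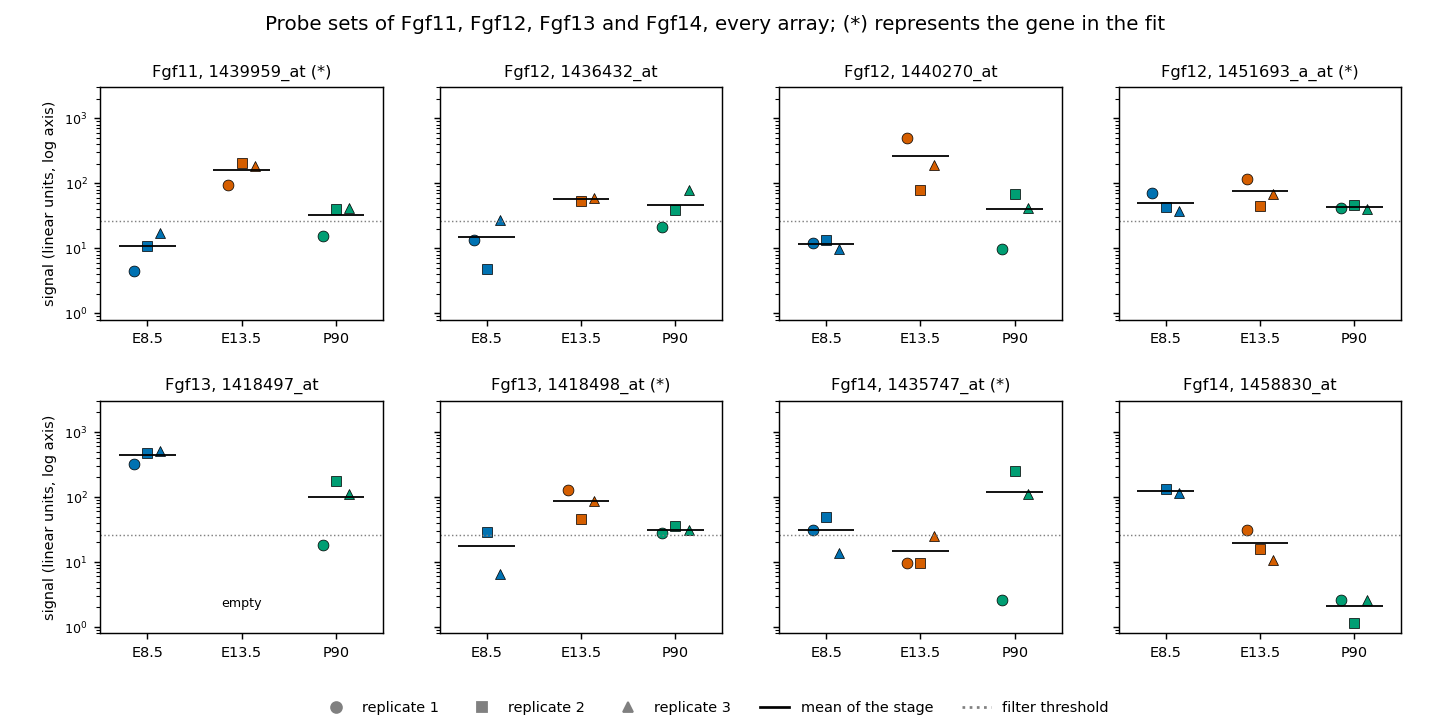
Signal on a log axis for probe sets of Fgf11, Fgf12, Fgf13 and Fgf14, with 1 point per array, a line at each stage mean and a dotted line at the filter threshold of 26.1; an asterisk marks the probe set that represents the gene. Fgf12 1440270_at is highest at E13.5 while 1451693_a_at overlaps across stages, Fgf13 1418497_at has no value at E13.5, and the Fgf14 probe sets run in opposite directions between E8.5 and P90.

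The known partners of these factors, voltage-gated sodium channel subunits and the kinase scaffold Mapk8ip2, were a list of 12 genes of which 8 were tested. From E8.5 to E13.5, 7 of the 8 rose, beside 9.27% of all genes, 0 fell and 1 was not called. The median log2 change was 2.55. Scn3b, a channel beta subunit, went from a mean signal of 70.0 to 2870 (5.07 ± 0.78, limma adjusted p = 0.00151, with 1 empty value), and Scn3a, an alpha subunit of immature neurons, from 5.66 to 614 (4.59 ± 0.89, adjusted p = 0.00701, with 2 empty values). From E13.5 to P90, 2 of 8 fell and 0 rose, beside 5.94% and 3.54% of all genes. Those that fell were Scn3b, at -3.12 ± 0.78 (limma adjusted p = 0.0298), and Scn11a, a channel of pain-sensing neurons, at -1.77 ± 0.38 (adjusted p = 0.0144). Against E8.5, 1 of 8 was higher at P90, Scn3a (limma adjusted p = 0.0288), beside 10.9% of all genes. The sensory neuron list rose from at most 419 at E8.5 to at least 4474 at E13.5, most of the latter from Isl1. The list stood at 512, 3213 and 2234 at P90, and its part in the Fgf11 and Fgf13 results was not tested.

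Of the 4 FGF receptors, Fgfr3 and Fgfr2 were called. Fgfr3, a receptor of neural progenitors, glia and cartilage, read 601, 225 and 226 at E8.5, 71.1, 93.5 and 208 at E13.5, and 32.9, 22.9 and 25.3 at P90. The 3 stages did not overlap, though E13.5 replicate 3 came close to the lower E8.5 arrays. P90 was below E8.5 by a log2 change of -2.94 ± 0.44 (limma adjusted p = 0.000666), which held under all 25 alternatives. The step from E8.5 to E13.5 was -1.36 (adjusted p = 0.0574, and 0.0497 without P90 replicate 1), and that from E13.5 to P90 was -1.59 ± 0.44 (adjusted p = 0.0433). The latter call held under 12 of 25 alternatives and was lost without E8.5 replicate 2 or 3, E13.5 replicate 3 or any P90 array (adjusted p up to 0.204). A second Fgfr3 probe set, 1425796_a_at, ranged from 16.8 to 38.9 and was not called.

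Fgfr2, whose splice forms serve epithelium and mesenchyme, read 1017, 1025 and 867 at E8.5 and 237, 289 and 206 at E13.5 with 1433489_s_at. At P90 it read 1291, 326 and 316, so P90 replicate 1 lay with the E8.5 arrays and the others just above E13.5. The fall from E8.5 to E13.5 was 1.93 ± 0.50 (log2 change -1.93, limma adjusted p = 0.0223). Without P90 replicate 1 this change had an adjusted p of 0.00151, and P90 was then also lower than E8.5 (-1.54 ± 0.37, adjusted p = 0.00937). Leaving out E13.5 replicate 3 or any of the E8.5 arrays ended the call (adjusted p 0.063 to 0.0862), and the other tested Fgfr2 probe sets, 1420847_a_at and 1443211_at, both changed by -0.42 without a call (adjusted p 0.372 and 0.467).

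Fgfr1, the main receptor of mesenchyme and neural crest derivatives, read 604, 469 and 384 at E8.5, 546, 414 and 535 at E13.5 and 677, 353 and 240 at P90. Its stages overlapped, with a change from E8.5 to E13.5 of 0.05 (95% interval -0.87 to 0.97, limma adjusted p = 0.962), so changes within that interval could not be seen here. Fgfr4, a receptor of liver and muscle, read 139, 103 and 163, then 86.3, 131 and 127, and at P90 379, 123 and 132, with no call. Its change from E13.5 to P90 was 0.64 ± 0.41 (adjusted p = 0.439), and 0.15 ± 0.33 without P90 replicate 1, while that from E8.5 to P90 went from 0.43 to -0.05 (adjusted p 0.495 and 0.93). Frs3, an adaptor that docks on activated FGF receptors, stayed between 118 and 162 on all 9 arrays, with changes of 0.10, 0 and 0.10 and intervals within -0.59 to 0.70.

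P90 replicate 1 differed from the other P90 arrays in members about as often as in all genes. Of 27 members with a value on all 3 P90 arrays, 4 were more than 2-fold above both others, beside 14.6% of all genes. These were Fgf9, Fgfr2, Fgfr4 and Spry1. Under both by more than 2-fold were 2 members, Fgf11 and Fgf14, beside 7.65% of all genes. Endothelial markers summed to 4034 on this array against 859 and 782, of which Kdr gave 2728 against 123 and 180. Cdh5, Robo4 and Esam were also highest on it, Pecam1 lay between the others and Tie1 was the lowest (25.3 against 34.4 and 38.2). Mesenchymal markers summed to 6224 against 2607 and 1485. Of the 10 adrenal cortex markers, 2 were summed, to 8246 against 4813 and 4168. Nearly all of this was Fdx1 (8173, 4787 and 4152), and Nr5a1 and Mc2r of that list had no value on this array. Chromaffin markers summed to 12770 against 26250 and 25230, and sensory neuron and glial markers to 512 and 310 against 3213 and 1257 on replicate 2 and 2234 and 947 on replicate 3. The part of these cells in the member values was not tested. With the array left out, 9, 6 and 7 members were called in the 3 comparisons, beside 20.9%, 9.76% and 26% of all genes, and Fgf12 was then represented by 1440270_at and called between E8.5 and E13.5 (2.98 ± 0.49, limma adjusted p = 0.00125).

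**Figure D4:**
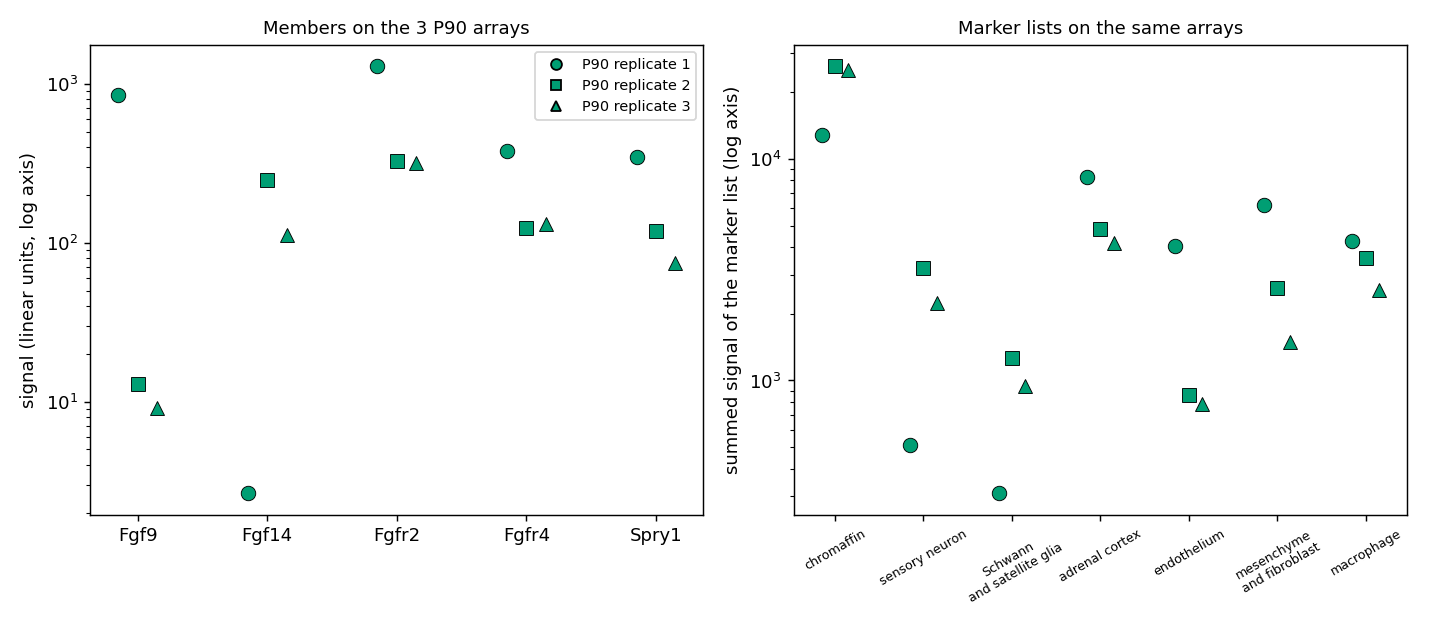
Left, signal on a log axis of Fgf9, Fgf14, Fgfr2, Fgfr4 and Spry1 on the 3 P90 arrays; right, summed signal of marker lists on the same arrays, also on a log axis. Replicate 1 (circles) is highest for Fgf9 at 848 and for the endothelial list at 4034, most of it from Kdr. It is lowest for Fgf14 at 2.65 and for the sensory neuron list at 512.

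The Sprouty and Spred inhibitors, which damp signalling between receptor and RAF kinase, were all tested. Spred3 read 28.4, 21.2 and 23.8 at E8.5, 52.9, 113 and 77.9 at E13.5 and 22.2, 28.1 and 28.7 at P90. The E13.5 arrays lay above all others, and E8.5 and P90 overlapped near the filter threshold. Spred3 rose by 1.22 ± 0.26 to E13.5 (limma adjusted p = 0.00725) and fell by 1.16 ± 0.26 to P90 (log2 change -1.16, adjusted p = 0.015). The fall to P90 was not called without E13.5 replicate 3 (adjusted p = 0.0648).

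Spry3 read 112, 144 and 158 at E8.5, 326, 201 and 455 at E13.5 and 153, 101 and 55.2 at P90. Its E13.5 arrays were the highest, with a change of 1.10 from E8.5 that was not called (limma adjusted p = 0.0892) and a called change of -1.54 ± 0.40 to P90 (adjusted p = 0.032). Without E13.5 replicate 2 the rise from E8.5 was called (1.39 ± 0.40, adjusted p = 0.0348). The call against P90 held under 15 of 25 alternatives and was lost when replicate 2 or 3 of E8.5 or P90, or replicate 1 or 3 of E13.5, was left out (adjusted p up to 0.161).

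Spry2, a Sprouty induced by many receptor kinases, read 342, 398 and 375 at E8.5, 686, 502 and 1075 at E13.5 and 522, 425 and 253 at P90. With this probe set, 1436584_at, E13.5 lay above E8.5 on every array and overlapped P90 by 1 array, with no call (0.93, limma adjusted p = 0.156, and -0.88, adjusted p = 0.239). The other Spry2 probe set, 1421656_at, overlapped between E8.5 and E13.5 (0.58, limma adjusted p = 0.431 over probe sets). Spry4 was represented by 1440867_at, with 98.3, 89.8 and 88.5 at E8.5, 149, 122 and 246 at E13.5 and 142, 142 and 107 at P90, and the E8.5 arrays were the lowest (0.75 to E13.5, adjusted p = 0.135). Another Spry4 probe set, 1445669_at, read 10.7, 8.25 and 10.7 at E8.5, 54.8, 114 and 142 at E13.5 and 38.8, 11.6 and 9.54 at P90. It was called over probe sets in both directions around E13.5, by 2.13 ± 0.35 from E8.5 (adjusted p = 0.00249) and -1.74 ± 0.35 to P90 (adjusted p = 0.0124), while 1422020_at changed by -0.53 without a call (adjusted p = 0.219).

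Spry1, Spred1 and Spred2 were not called. Spry1 ranged from 69.5 to 122 on 8 arrays and read 346 on P90 replicate 1, and its change from E13.5 to P90 of 0.61 ± 0.45 (limma adjusted p = 0.515) was 0.03 ± 0.33 without that array. From E8.5 to P90 it changed by 0.39 with that array and -0.19 without it (adjusted p 0.588 and 0.722). Spred1 had 8 probe sets, of which 1445228_at did not pass the filter and none of the others was called. Spred1 read 799 to 1960 over the 9 arrays with 1423160_at, and Spred2 read 344 to 1101 with 1434403_at. The Spred2 probe set 1441415_at went the other way from E13.5 to P90 (0.88 against -0.50). Its P90 signals of 128 to 142 lay above its other values, without a call (limma adjusted p = 0.237 over probe sets). Among the 7 inhibitors, 1 rose and 0 fell from E8.5 to E13.5, beside 9.27% and 7.22% of all genes (median log2 change 0.75), 2 fell from E13.5 to P90, beside 5.94% (median -0.50), and 0 were called between E8.5 and P90 (median 0.05; 0 at an unadjusted p under 0.05 in limma).

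Among Dusp6, Etv4 and Etv5, only Etv5 was called with all arrays. With 1428142_at it read 55.5, 36.6 and 50.8 at E8.5, 370, 56.6 and 283 at E13.5 and 125, 89.5 and 86.0 at P90. The E8.5 arrays were the lowest, and E13.5 replicate 2 lay near them and under all P90 arrays. Etv5 rose by 1.69 ± 0.52 from E8.5 to E13.5 (limma adjusted p = 0.0457), a call that held under 10 of 25 alternatives and was lost when any array of E8.5 was left out, and also without E13.5 replicate 1, E13.5 replicate 3, P90 replicate 2 or P90 replicate 3 (adjusted p up to 0.172). Without E13.5 replicate 2 the rise was 2.43 ± 0.30 (adjusted p = 0.000497), with a change to P90 of -1.56 ± 0.30 (adjusted p = 0.00763). A second probe set, 1450082_s_at, read 21.2, 12.97 and 10.8 at E8.5, 45.1, 42.3 and 33.2 at E13.5 and 22.8, 27.6 and 17.2 at P90, with a change from E8.5 of 0.87 ± 0.22 (adjusted p = 0.0225 over probe sets), and 1420998_at did not pass the test (-0.08, adjusted p = 0.893). E13.5 replicate 2 was also the array with the widest gap between 3′ and 5′ probe sets of beta-actin, 6.69 on the log2 scale against 0.85 to 4.70 on the others, a measure of RNA integrity. Its part in the Etv5 values was not tested.

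Dusp6, the ERK phosphatase, read 61.1, 207 and 206 at E8.5, 188, 51.3 and 191 at E13.5 and 114 and 117 at P90, where replicate 1 was empty. A low array at E8.5 and at E13.5 made these stages overlap (-0.14 ± 0.53, limma adjusted p = 0.905), and without E13.5 replicate 2 the change had the other sign (0.39 ± 0.47, adjusted p = 0.65). Etv4, the relative of Etv5, read 46.4, 44.6 and 51.9 at E8.5, 54.8, 89.9 and 76.5 at E13.5 and 70.3, 46.0 and 33.6 at P90. Its E13.5 arrays lay above those of E8.5, but the change of 0.48 was not called (adjusted p = 0.291).

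Other genes of the pathway were taken as lists and are given for the step from E8.5 to E13.5, then that from E13.5 to P90, then E8.5 with P90. In this order, 9.27%, 3.54% and 10.9% of all genes were called higher and 7.22%, 5.94% and 12.5% lower, beside which each list stands. Of 17 tested co-receptors and extracellular regulators, 3, 3 and 4 were higher and 2, 2 and 4 lower, with medians of 0.10, -0.58 and -0.34. Fgfbp3, a carrier that releases FGFs from the matrix, fell from a mean signal of 1490 at E8.5 to 80.6 at E13.5 (-3.96 ± 0.34, limma adjusted p = 7.97e-05), and L1cam, an adhesion molecule of axons that can engage FGF receptors, rose from 230 to 4000 (4.06 ± 0.60, adjusted p = 0.000941). L1cam fell again to P90 (-2.23, adjusted p = 0.0385), while Sdc2, a heparan sulphate proteoglycan, rose from 392 to 1980 (2.30, adjusted p = 0.0116).

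Of 14 tested genes that make or edit heparan sulphate, 1, 0 and 0 were higher and 0, 3 and 4 lower, with medians of -0.13, -0.20 and -0.21. Hs3st2, a sulphotransferase, was the gene that rose to E13.5 (1.87, limma adjusted p = 0.00558). The sulphatases Sulf2 and Sulf1, which trim the sulphate groups that FGFs bind, fell from E13.5 to P90, from mean signals of 1390 to 257 (-2.48, adjusted p = 0.0044) and from 229 to 38.6 (adjusted p = 0.00811). Against E8.5, the largest called falls at P90 were those of Ndst4, a sulphotransferase of chain synthesis, from a mean signal of 2630 to 324 (adjusted p = 0.000341), and Sulf1 (-2.85, adjusted p = 0.000701).

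Of the 22 tested genes of the RAS, ERK, PI3K and phospholipase C core, 1, 0 and 2 were called higher and 0 lower in each comparison. In either direction, 16.5%, 9.48% and 23.3% of all genes were called. The medians of these 22 genes were 0.24, -0.24 and -0.07. At an unadjusted p under 0.05 in limma, 2, 0 and 2 were higher and 0, 3 and 3 lower. Pik3r1, a PI3K regulatory subunit, rose from E8.5 to E13.5 (1.72, limma adjusted p = 0.0375), and it and the adaptor Shc1 were higher at P90 than at E8.5 (2.44, adjusted p = 0.0048, and 1.22, adjusted p = 0.029). Of 21 tested other feedback and response genes of ERK, 1, 2 and 2 were higher and 3, 0 and 4 lower, with medians of -0.54, 0.14 and -0.27. Egr1, an immediate early transcription factor, rose at each step, from a mean signal of 43.2 at E8.5 to 436 at E13.5 (2.69, adjusted p = 0.00736) and further to P90 (2.30, adjusted p = 0.0252). Lrig1, an inhibitor of receptor kinases, fell from 500 to 92.0 between E8.5 and E13.5 (-2.45, adjusted p = 0.00631). Tob1, an inhibitor of proliferation, rose from E13.5 to P90 (2.27, adjusted p = 0.0178).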

How the data were processed

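RNA of 9 laser-captured samples was hybridised to Affymetrix mouse arrays, and the authors deposited an intensity for each probe set in each sample; the values are linear and go down to 1. MAS5, GCOS, RMA and GCRMA are named in the submitters' processing notes with no role, and the program and scaling behind the deposited values are not given in the sources used here. The table had 405909 cells, of which 8048 (1.98%) held no value, without a reason given; 21 of these belong to the 83 member probe sets. Probe sets were named from the platform annotation, and all 37 member genes matched RefSeq by identifier. Members and gene lists were chosen with earlier results of these data known.

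Values were taken as log2(signal + 16) with no further scaling. Probe sets were kept that exceeded a signal of 26.1, the 40th percentile of all values, in 3 or more of the 9 samples and had at least 2 values per stage, the latter because of the empty cells. The brightest kept probe set by mean log2 signal represented a gene. The 3 stages entered 1 limma fit (limma 3.58.1, R 4.3.3; two-sided, with lmFit and eBayes on a variance trend, 6 residual degrees of freedom), with Benjamini-Hochberg adjustment over 13748 genes, or over 24013 probe sets where stated. On simulated data with 200 changed genes, changes of 1 on the log2 scale were recovered in 0%. Changes of 2 were recovered in 57.5%, 56.5% and 59% for the step from E8.5 to E13.5, that from E13.5 to P90, and E8.5 with P90. More genes were called in the data, 1303 to 3209 per comparison, which makes the adjustment less strict than in the simulation. The simulated rates therefore need not hold for the data, where Fgf3 was called at a log2 change of -1.02. Members called in any comparison are described in full and the others by their values; genes outside the members are named as the 2 largest called changes of a list. In all, 25 alternatives were run, including each array left out, another pseudocount, filter, normalization and probe set rule, and a test for at least 2-fold change.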

Additional observations from a re-analysis of the deposited data

How the results depend on the processing

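Of the 15 calls of single members, 3 held under all alternatives that gave a value, those of Fgf11 and Fgf15 between E8.5 and E13.5 and of Fgfr3 between E8.5 and P90, and no call changed sign. Between E8.5 and E13.5, 7 members and 2267 genes in all were called. These became 4 members without _x_at and _s_at probe sets, 2 members and 551 genes in limma's treat test for at least 2-fold change, and 4 to 9 members and 1273 to 2822 genes with 1 array left out. Between E13.5 and P90, 5 members and 1303 genes were called. These became 3 members with no filter on low values, 3 members and 832 genes in a fit of the 6 arrays compared, 2015 genes with the beta-actin 3′ to 5′ gap as a covariate, 0 members and 263 genes at 2-fold, and 2 to 7 members and 583 to 1703 genes with 1 array left out. Between E8.5 and P90, 3 members and 3209 genes were called, against 1 member and 845 genes at 2-fold and 2 to 7 members and 1955 to 3888 genes with 1 array left out. An alternative chosen after seeing the data left out both E13.5 replicate 2 and P90 replicate 1 and called 11, 11 and 9 members and 3579, 3402 and 5040 genes in the 3 comparisons.

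Deviations from the stage means were correlated between arrays of different stages. Same-numbered arrays gave -0.367 to 0.385, of which 3 of 9 were over 0.1. Arrays with different numbers gave -0.378 to 0.433, of which 7 of 18 were over 0.1. These values showed no pairing by replicate number, but with 3 arrays per stage they cannot exclude it. With the number as a replicate block, 5, 3 and 4 members were called in the 3 comparisons, beside 15.6%, 9.01% and 23.1% of all genes, and the block ended the calls of Fgf3 and Fgf13 between E8.5 and E13.5 and of Fgfr3 and Spry3 between E13.5 and P90, and added a call of Fgf11 between E8.5 and P90 (log2 change 0.83, limma adjusted p = 0.0322).

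Signals near the floor, as in the 9 untested ligands, limit what the arrays can show, and changes of dim members are understated by the added 16.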
